A study of Homo sapiens and Mus musculus with 27 samples.

Results

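The 41 genes described here encode proteins that license and fire replication origins, copy DNA, supply deoxynucleotides or drive entry into S phase. They were taken as a list of symbols, with no measured value in the rule, although the opposite movement of RRM2 in the 2 human lines was known when the list was made. All 41 were found, each as 1 feature, among the 78932 features of both human tables, and all 41 mouse orthologs among the 25239 features of the mouse table. All 41 also passed the filter on low counts in each table, so no member was left out of a test. By role, 10 belong to the pre-replicative complex, 6 to the activated helicase, 6 to the polymerases and primase, 5 to the sliding clamp and its loader, 4 to deoxynucleotide synthesis, 3 to Okazaki fragment processing and single-strand binding, 3 to chromatin assembly and methylation maintenance, and 4 are G1/S cyclins or E2F factors.

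The study sequenced RNA from 27 libraries in 9 groups of 3 replicates. Cells labelled HCC1937, a human breast cancer line, received vehicle, TM at 10 µM or AMD3100 at 10 µM. MDA-MB-231 cells, another human breast cancer line, received vehicle or bortezomib at 10 nM, paired either with 10 µM TM or with 10 µM AMD3100. The line 4T1 comes from a mouse mammary carcinoma, and its tumours grew in Balb/c mice on vehicle, or on bortezomib at 1 mg/kg every 4 days paired with TM at 0.05 mg/ml in the drinking water or with AMD3100 at 5 mg/kg every 2 days. Bortezomib is a proteasome inhibitor and AMD3100 a CXCR4 antagonist. TM is not spelled out in the labels and is kept as a name. The labels give no treatment time for the cells and no age for the mice, and no group received bortezomib alone, so its effect cannot be told apart from that of its partner. The replicates are called biological, without a statement of separate cultures, so the p-values describe the spread between these samples.

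DNA replication begins in G1, when ORC, CDC6 and CDT1 load the MCM helicase onto origins as an inactive ring. In S phase, CDC45 and GINS join that ring, polymerase alpha with primase lays down primers, and the clamp loader places PCNA for the replicative polymerases. Cyclin E with its kinase drives this step, the E2F factors switch on many of these genes, and dividing tumour cells express most of them. The proteasome normally destroys several of the proteins, CDT1 and cyclin E among them, but the present measurements are of RNA.

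Because many of these genes are known targets of E2F and of the CCAAT-binding factor NF-Y, the promoters (250 bases before to 50 after the start site; RefSeq, GRCh38.p14) were searched on both strands for TTTCCCGC or TTTGGCGC (E2F), CCAAT, and TTTGAA (the CHR element of mitotic promoters). The letters of these motifs share no full copy of one another. Of the members, 36 had an entry, with 46 promoters, and MCM4, MCM5, GINS4, RPA2 and CCNE2 did not match. An E2F motif was present in 39.1% of the member promoters (18 of 46), against 2.27% of all 35116 promoters. CCAAT was present in 58.7% against 34.6%, and TTTGAA in 2.17% (RRM1 alone) against 15.2%. The stretch of RRM2 is printed because this gene was called in opposite directions in the lines and its promoter holds 3 copies of CCAAT, in capitals, and no E2F motif of this spelling. It lies at chr2:10122589-10122738 on the plus strand and ends at the start site.
RRM2: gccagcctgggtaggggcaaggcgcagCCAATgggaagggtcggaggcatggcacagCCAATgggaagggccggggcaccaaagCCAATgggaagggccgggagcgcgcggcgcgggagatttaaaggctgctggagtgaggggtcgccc
The next stretches carry an E2F motif, in capitals, and are read 5′ to 3′ on the strand of the gene. CDC6 (chr17:40287839-40287908, plus strand), MCM7 (chr7:100101546-100101615, minus strand) and GINS3 (chr16:58392431-58392500, plus strand) are shown because these genes rose in MDA-MB-231.
CDC6: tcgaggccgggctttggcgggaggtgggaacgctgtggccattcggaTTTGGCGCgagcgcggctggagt
MCM7: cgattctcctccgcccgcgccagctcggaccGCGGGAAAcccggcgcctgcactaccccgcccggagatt
GINS3: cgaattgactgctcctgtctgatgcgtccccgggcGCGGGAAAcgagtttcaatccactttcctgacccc
GINS1 (chr20:25407633-25407702, plus strand), LIG1 (chr19:48170420-48170489, minus strand) and UHRF1 (chr19:4909456-4909525, plus strand) hold the same motif and fell in the same libraries.
GINS1: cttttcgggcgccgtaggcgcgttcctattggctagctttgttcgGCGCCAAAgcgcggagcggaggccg
LIG1: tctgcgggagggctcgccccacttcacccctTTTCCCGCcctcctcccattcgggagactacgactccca
UHRF1: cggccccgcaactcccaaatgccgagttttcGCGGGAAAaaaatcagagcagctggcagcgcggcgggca
Because these genes were picked by motif and direction, the printed stretches cannot show whether the motif goes with rises or with falls.

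The libraries held 35981504 to 43973262 counts each (HCC1937), 40389469 to 50283398 (MDA-MB-231) or 38407536 to 50735374 (4T1). Levels below are CPM, the usual counts per scaled library total. 1 library stood apart: AMD3100 replicate 1 of HCC1937 had 19.9% mitochondrial counts (other HCC1937 libraries, 10.5% to 11.6%) and counts in 20639 features, where each other library of the line had at least 29335. It was the highest of the 9 HCC1937 libraries for 12 members and the lowest for 18, which was not counted over all genes. Results for this line are therefore given with and without this library. In MDA-MB-231 the mitochondrial share was 3.94% to 4.06% under vehicle and 2.67% to 3.25% under treatment. 1 vehicle tumour of 4T1 (replicate 1) carries, in part of its labels, a species and line that belong to another dataset and was kept as 4T1 by its title, library name and column. In the human lines the summed level of the B cell markers was at most 1.66 CPM, of the T cell markers at most 2.38 and of the neutrophil markers at most 1.72. That of 6 macrophage markers was 4.69 to 6.38 CPM in MDA-MB-231. In HCC1937 it was 7.16 to 8.28 CPM under vehicle, 6.96 to 9.21 under AMD3100 and 12.4 to 13.7 under TM, led by CSF1R (mean 7.52 CPM), and its part in the TM results was not tested. The plasma cell list stood at 177 to 273 CPM in HCC1937 and 91.0 to 306 in MDA-MB-231, mostly from XBP1. Of 7 epithelial markers, KRT8 and KRT18 were abundant in both (means of 1615 and 594 CPM in HCC1937, 351 and 193 in MDA-MB-231), and KRT5 did not pass 4 counts in any library of either line. CDH1 averaged 0.980 CPM in HCC1937 and 0.0256 in MDA-MB-231, EPCAM 0.145 and 1.74, and KRT19 0.203 and 102. Thus 5 of the 7, EPCAM and CDH1 among them, were close to 0 in the libraries labelled HCC1937, and KRT19 was not in MDA-MB-231. The mesenchymal markers VIM, ZEB1 and FN1 averaged 394, 13.3 and 0.655 CPM in HCC1937 and 928, 5.71 and 51.7 in MDA-MB-231. The name HCC1937 rests on the labels, and the identity of these cells was not tested.

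Compared per kilobase of gene length (RPKM), the members spanned more than 2 orders of magnitude in untreated cells. In HCC1937 vehicle the highest were PCNA, the sliding clamp (110.8 ± 5.64 RPKM, SD, n = 3), TK1, the thymidine kinase of the salvage pathway (93.2 ± 2.71), MCM7 (93.0 ± 5.01) and MCM3 (84.7 ± 1.15). TK1 and MCM7 lay within each other's SD. In MDA-MB-231 vehicle the order began with TK1 (277.8 ± 27.04 RPKM), MCM7 (192 ± 22.9), FEN1, the flap nuclease (151 ± 6.73), and MCM3 (104 ± 3.22). CCNE2, which encodes cyclin E2, was lowest in both lines, at 0.705 ± 0.0701 and 0.559 ± 0.0833 RPKM. RRM2, the regulated subunit of ribonucleotide reductase, stood at 19.1 ± 0.643 RPKM in HCC1937 and 55.5 ± 2.92 in MDA-MB-231, an order set across separately scaled tables.

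**Figure D1:**
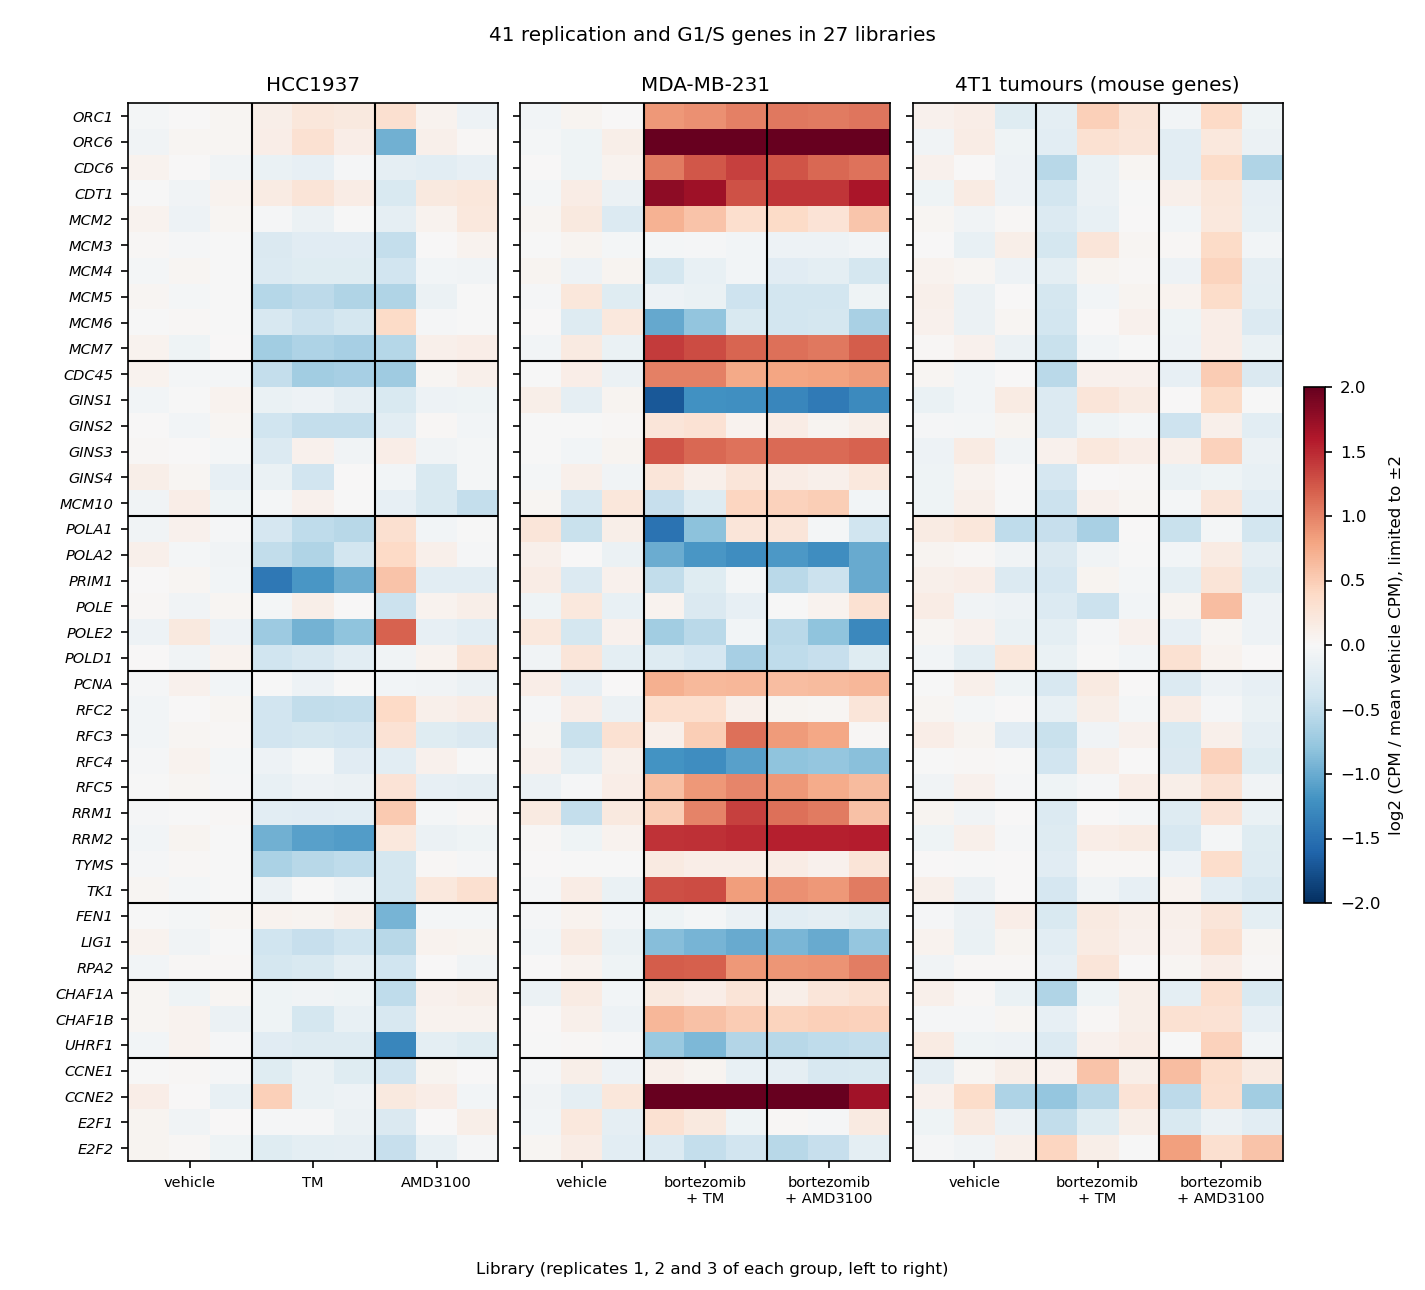
Each row is a member, ordered by role, and each column a library; colour is log2 of CPM over the mean vehicle CPM of the dataset, limited to ±2. The MDA-MB-231 treated libraries hold strong red rows beside blue ones, HCC1937 TM is mostly pale blue with RRM2 and PRIM1 darker, AMD3100 replicate 1 differs from replicates 2 and 3, and the 4T1 columns vary by tumour.

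TM without bortezomib was tested in HCC1937. 6 of the 41 members were called lower and 0 higher by edgeR's quasi-likelihood test with Benjamini-Hochberg adjustment over all genes (adjusted p under 0.05), while 7.07% of all tested genes were called, 2.96% higher and 4.11% lower. The 6 were RRM2, PRIM1, MCM5, GINS2, RFC2 and TYMS. The median log2 change was -0.21 over the members and -0.0037 over all tested genes. In 25 members all 3 TM libraries lay below all 3 vehicle libraries, in 4 (ORC1, ORC6, CDT1 and FEN1) above, and in 12 the groups overlapped. Of all tested genes 51.6% had groups that did not overlap, 25.2% higher and 26.4% lower under TM.

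RRM2 (ENSG00000171848, GRCh38 chromosome 2, 10120698 to 10131419) stood at 169, 181 and 175 CPM under vehicle and at 89.7, 82.1 and 80.7 CPM under TM. The groups were far apart and each was tight, and RRM2 fell by 1.06 on the log2 scale (SE 0.11, adjusted p = 0.00135, edgeR), a 2.08-fold difference. PRIM1, the catalytic subunit of primase, was at 10.9, 11.2 and 10.5 CPM under vehicle and 4.03, 4.85 and 5.503 under TM. It fell by 1.18 (SE 0.23, adjusted p = 0.0186), values that rest on 180 to 466 counts per library. Annotated same-strand genes share 27.9% of the exonic bases of RRM2 (AC007240.1) and 25.99% of those of PRIM1 (AC117378.1, with 0 counts in any library). The identifier of AC007240.1 is not among the features of either human table. How the counting divided shared reads is not given. TYMS, which makes thymidylate, fell from 20.6, 21.3 and 20.7 CPM to 13.5, 14.3 and 14.7 (log2 -0.56, SE 0.12, adjusted p = 0.0284). The annotated exons of TYMS share 58.2% of their bases with ENOSF1 on the opposite strand, which was also lower (log2 -0.72, SE 0.13, adjusted p = 0.0110), and whether counting used the strand is not given, so the reads of the pair cannot be told apart.

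Of the helicase genes, MCM5 fell from 225, 214 and 219 CPM to 148, 152 and 145 (log2 -0.56, SE 0.14, adjusted p = 0.0489). GINS2, a subunit of the GINS complex, fell from 92.1, 87.8 and 94.4 CPM to 69.1, 65.7 and 65.8 (log2 -0.45, SE 0.09, adjusted p = 0.0239). RFC2, a subunit of the clamp loader, fell from 74.6, 77.9 and 79.2 CPM to 59.2, 54.8 and 55.3 (log2 -0.45, SE 0.10, adjusted p = 0.0350). MCM7 was further down than these at 286, 300 and 290 CPM under TM against 485, 435 and 464 (log2 -0.66, SE 0.17), but did not pass (adjusted p = 0.0515). The other fixed genes did not pass either: RRM1, the catalytic reductase subunit, had a log2 change of -0.22 (SE 0.14, adjusted p = 0.479), CDC6 -0.11 (0.09, 0.592), MCM2 -0.05 (0.12, 0.887), PCNA -0.04 (0.09, 0.887), CCNE1 -0.20 (0.13, 0.450), CCNE2 0.11 (0.24, 0.885) and E2F1 -0.05 (0.12, 0.880). E2F1 stood at 104, 95.1 and 100.4 CPM under vehicle and 98.1, 98.7 and 91.9 under TM, so the groups overlapped.

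These counts depended on AMD3100 replicate 1, which is in neither group but shares the estimate of spread. Without it, 26 members were called, 23 lower and 3 higher, as were 40.8% of all genes (19.4% higher, 21.4% lower). The share of members called lower (23 of 41) then exceeded that of all genes. By role, the members called lower were 5 of 6 polymerase and primase genes, 5 of 10 in the pre-replicative complex, 3 of 4 in deoxynucleotide synthesis, 2 of 6 in helicase activation, 2 of 5 in clamp and loader, 2 of 3 in Okazaki processing and single-strand binding, 2 of 3 in chromatin and 2 of 4 among cyclins and E2F factors. POLE2 (log2 -0.82), MCM7 (-0.66) and CDC45 (-0.61), a partner of MCM and GINS in the helicase, joined RRM2 (-1.06) and PRIM1 (-1.18). The 3 called higher were the licensing genes ORC1 (0.18), CDT1 (0.19) and ORC6 (0.19), all small differences. With only the TM and vehicle libraries in the fit, 26 members and 44.8% of all genes (21.7% higher, 23.1% lower) were called. With AMD3100 replicate 1 kept, leaving out any 1 vehicle or TM library left RRM2 as the only call. With AMD3100 replicate 1 left out as well, 22 to 26 members were called. All-gene shares for these fits are not given here, and the fit that left out only AMD3100 replicate 1 called 40.8% of all genes.

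For AMD3100 against vehicle in HCC1937, the same fit was used. 0 members were called (1 at unadjusted p under 0.05), and edgeR called 0% of all genes (951 at unadjusted p under 0.05, and 16 genes but no member by DESeq2). RRM2 under AMD3100 was at 202.5, 161 and 164 CPM, with replicate 1 the highest, against 169 to 181 under vehicle. Its log2 change of 0.01 had a 95% interval of -0.21 to 0.23, which excludes a change of the size seen with TM. Without replicate 1, 5 members were called beside 8.14% of all genes (5.39% higher, 2.76% lower): CDT1 (log2 0.23) and TK1 (0.29) were higher, and MCM10, a helicase activator (-0.36), RFC3 (-0.24) and UHRF1, which guides maintenance methylation (-0.20), were lower. Replicate 1 itself held 43.8 CPM of POLE2 (17.1 and 16.7 in replicates 2 and 3), 39.1 of ORC6 (82.3 and 78.1) and 40.1 of UHRF1 (86.1 and 83.3). The part of its mitochondrial share and feature count in these values was not tested.

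AMD3100 and TM were also compared directly in HCC1937. 7 members were higher under AMD3100 and 0 lower, beside 8.22% of all genes (4.61% higher, 3.6% lower): RRM2 (log2 1.07, SE 0.11, adjusted p = 0.00145, edgeR), PRIM1 (1.28, 0.23, 0.0134), RFC2 (0.68, 0.10, 0.00694), POLA2 (0.65, 0.13, 0.0197), POLA1 (0.57, 0.12, 0.0263), MCM6 (0.49, 0.12, 0.0438) and GINS2 (0.37, 0.09, 0.0444). POLA1 and POLA2 encode subunits of polymerase alpha. Of these, POLA2 stood at 35.1, 28.6 and 26.3 CPM under AMD3100 and 18.9, 17.6 and 20.7 under TM, and MCM6 at 148, 111 and 113 against 91.2, 84.1 and 89.3, with AMD3100 replicate 1 the highest in each. Without that library 25 members were called, 24 higher and 1 lower (MCM10), beside 36.5% of all genes (19.7% higher, 16.8% lower). With only the AMD3100 and TM libraries in the fit, 1 member and 1.36% of all genes (0.744% higher, 0.615% lower) were called. The TM libraries enter this comparison and the one against vehicle, so the 2 sets of values are not independent.

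MDA-MB-231 cells under bortezomib plus TM were compared with vehicle. 23 of the 41 members were called, 16 higher and 7 lower, beside 51.7% of all genes (24.1% higher, 27.6% lower), so a call as such was common, while the members' share of rises (16 of 41) was above that of all genes. The median log2 change was 0.20 over the members and -0.090 over all genes. Under bortezomib plus AMD3100, 25 were called, 16 higher and 9 lower, beside 46.5% of all genes (22.3% higher, 24.2% lower), with medians of 0.16 and -0.049. Both arms share the vehicle libraries, so their likeness is no independent support. The 16 that rose were the same genes in both arms, and 6 fell in both: GINS1, LIG1, POLA2, POLD1, RFC4 and UHRF1. MCM6 was called lower only with TM, and E2F2, POLE2 and PRIM1 only with AMD3100. 15 members were called in neither.

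**Figure D2:**
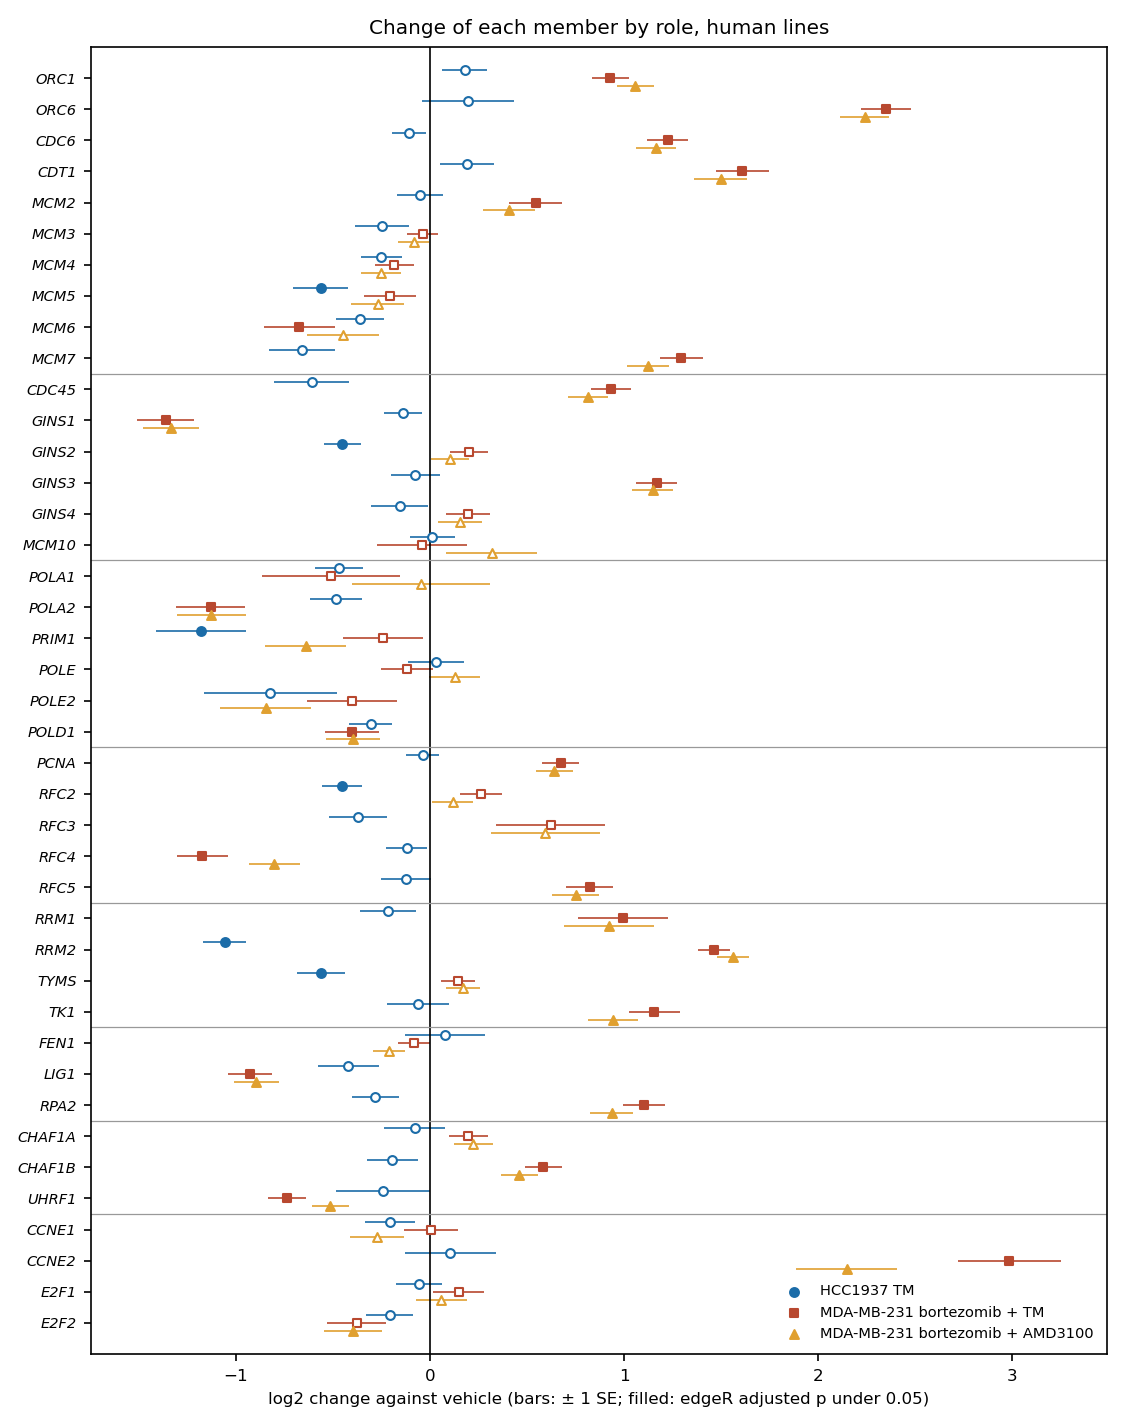
Points are log2 changes against vehicle with bars of ± 1 SE, for HCC1937 TM (circles) and the MDA-MB-231 arms (squares and triangles); filled points have an edgeR adjusted p under 0.05, and lines separate the roles. CCNE2 (2.98 and 2.15) and ORC6 (2.35 and 2.24) lie farthest right, GINS1 (-1.36 and -1.33) farthest left, and RRM2 is filled on opposite sides of 0 in the lines.

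Among the 10 pre-replicative complex genes, 6 rose in both arms, where 24.1% (TM) and 22.3% (AMD3100) of all genes were called higher. ORC6, a subunit of the origin recognition complex, rose from 48.3, 46.6 and 54.0 CPM under vehicle to 209.97, 286 and 261 under bortezomib plus TM and 216, 252 and 234 under bortezomib plus AMD3100. The treated libraries did not come near the vehicle range, and the log2 changes were 2.35 (SE 0.13, adjusted p = 8.32e-08, edgeR) and 2.24 (SE 0.13, adjusted p = 1.45e-07). CDT1, which with CDC6 loads MCM, rose from 178, 202 and 169 CPM to 633, 595 and 444 with TM and 491, 490.4 and 565 with AMD3100 (log2 1.61, SE 0.14, and 1.496, SE 0.14). CDC6 rose from 119, 112 and 123 CPM to 243, 279 and 306 and to 281, 262 and 250 (log2 1.23, SE 0.10, adjusted p = 2.22e-06, and 1.16, SE 0.10, adjusted p = 4.07e-06). ORC1, the large ORC subunit, rose by log2 0.93 and 1.06.

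**Figure D3:**
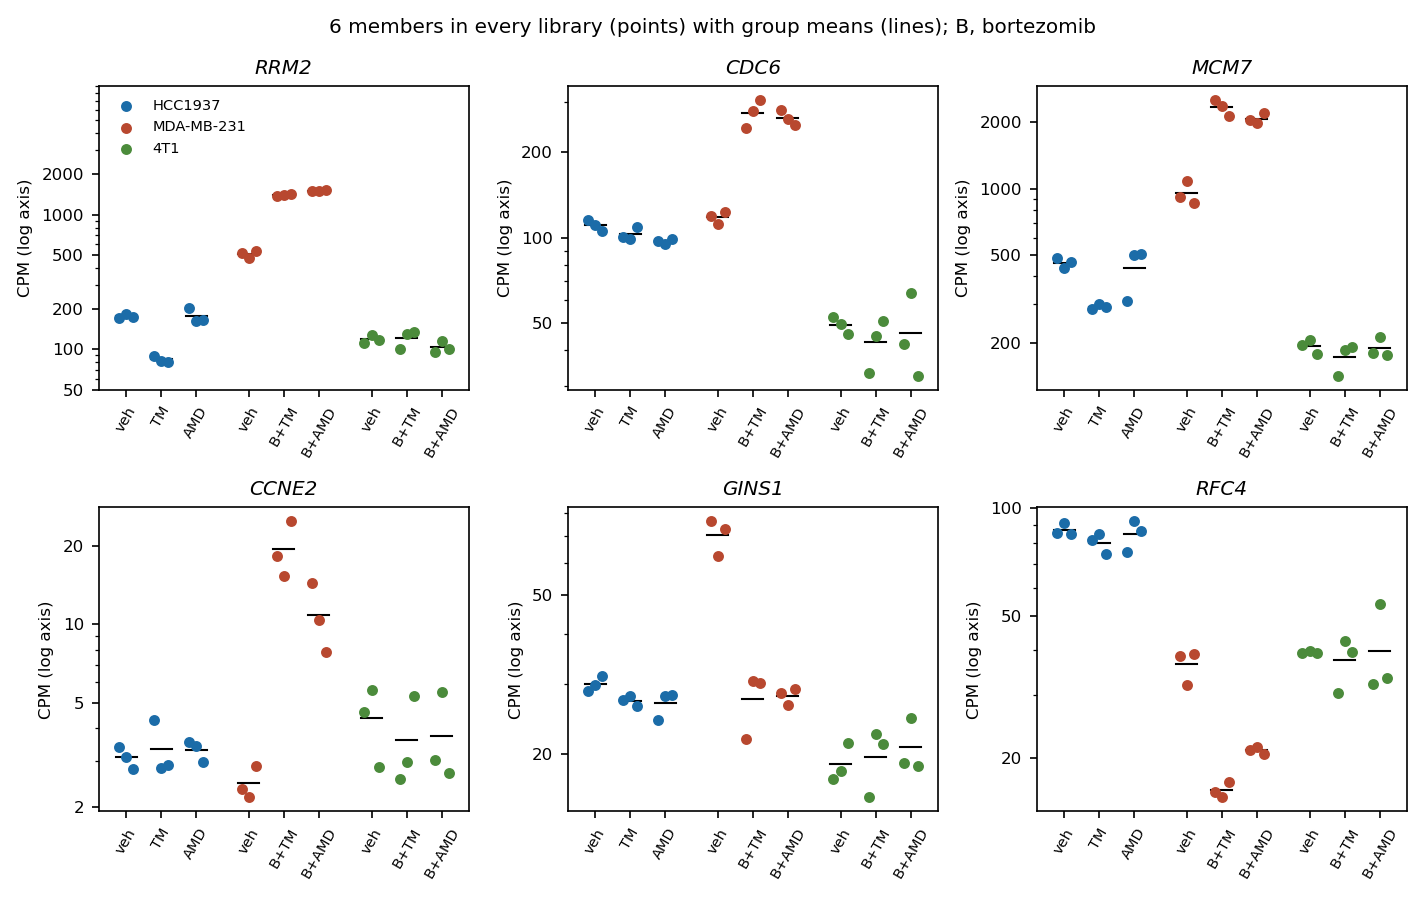
CPM of 6 members on log axes in every library, with points for replicates and lines for group means (veh, vehicle; AMD, AMD3100; B, bortezomib; the mouse ortholog in 4T1). RRM2, CDC6, MCM7 and CCNE2 are higher in all 6 treated MDA-MB-231 libraries than under vehicle, GINS1 and RFC4 are lower, and the 4T1 groups overlap.

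The subunits of the MCM ring differed from each other. MCM7 rose from 912, 1080 and 864 CPM to 2520, 2362 and 2125 with TM and 2041, 1972 and 2202 with AMD3100 (log2 1.29, SE 0.11, adjusted p = 2.02e-06, and 1.12, SE 0.11, adjusted p = 7.3e-06). MCM2 rose from 226, 251 and 183 CPM to 357, 326 and 279 and to 287, 266 and 323 (log2 0.54, SE 0.13, adjusted p = 0.00502, and 0.41, SE 0.13, adjusted p = 0.0254). MCM6 moved the other way, from 84.4, 69.8 and 97.3 CPM to 41.2, 48.5 and 68.2 with TM (log2 -0.67, SE 0.18, adjusted p = 0.00914), and stood at 65.0, 66.0 and 53.4 with AMD3100 (-0.45, SE 0.18, adjusted p = 0.0636). MCM3, MCM4 and MCM5 had log2 changes between -0.04 and -0.27 in the 2 arms and passed in neither. The exons of MCM2 share 30.7% of their bases with an antisense RNA that reached at most 14 counts in a library of this line, and those of MCM7 share 7.58% with AP4M1, which did not pass (log2 0.15, adjusted p = 0.417).

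**Figure D4:**
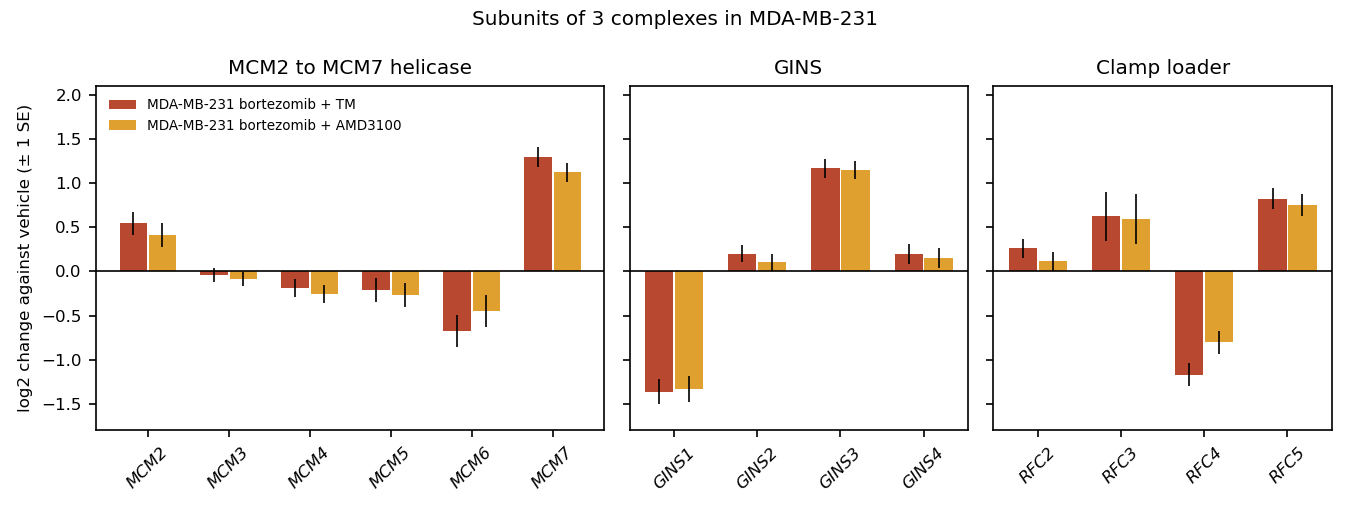
Bars are log2 changes against vehicle in MDA-MB-231 with ± 1 SE, for the MCM ring, GINS and the clamp loader. With TM, at least 1 subunit of each complex rose and at least 1 fell: MCM7 and MCM2 against MCM6, GINS3 against GINS1, RFC5 against RFC4. Of all genes, 24.1% were called higher and 27.6% lower in this comparison.

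Subunits of GINS and of the clamp loader also moved in different directions. Such a mix was common, as 24.1% of all genes were called higher with TM and 27.6% lower. GINS1 fell from 76.3, 62.5 and 73.0 CPM to 21.8, 30.6 and 30.1 with TM and 28.4, 26.5 and 29.05 with AMD3100 (log2 -1.36, SE 0.15, adjusted p = 1.28e-05, and -1.33, SE 0.15, adjusted p = 1.94e-05). GINS3 rose from 24.8, 24.2 and 26.04 CPM to 60.02, 55.7 and 52.8 and to 54.8, 54.6 and 56.7 (log2 1.17, SE 0.10, and 1.15, SE 0.10). GINS2 (log2 0.20 and 0.11) and GINS4 (0.20 and 0.16) passed in neither arm. CDC45 rose by 0.93 (SE 0.11) and 0.81 (SE 0.10), and MCM10 did not pass. RFC4 fell from 38.6, 32.0 and 39.0 CPM to 16.01, 15.5 and 17.1 with TM and 20.98, 21.4 and 20.4 with AMD3100 (log2 -1.17, SE 0.13, and -0.80, SE 0.13). RFC5 rose from 55.2, 59.2 and 65.7 CPM to 91.3, 109 and 118 and to 110, 100.1 and 93.2 (log2 0.82, SE 0.12, and 0.75, SE 0.12). PCNA rose from 119, 96.7 and 109 CPM to 176, 170 and 171 with TM (log2 0.67, SE 0.10, adjusted p = 0.000108) and 166, 168 and 172 with AMD3100 (0.64, SE 0.10, adjusted p = 0.000193). RFC3 varied too much to pass (log2 0.62, SE 0.28, adjusted p = 0.0833, with TM).

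None of the 6 polymerase and primase genes was called higher. With TM all 6 log2 changes were negative and 2 passed, and with AMD3100 5 were negative and 4 passed. Beside them, 24.1% of all genes were called higher and 27.6% lower with TM, and 22.3% and 24.2% with AMD3100. POLA2, the accessory subunit of polymerase alpha, fell from 7.65, 7.24 and 6.61 CPM to 3.60, 3.195 and 3.03 with TM and 3.24, 3.02 and 3.58 with AMD3100 (log2 -1.13, SE 0.18, adjusted p = 0.000235, and -1.13, SE 0.18, adjusted p = 0.000292), values that rest on 119 to 429 counts per library. AP000944.2, on the same strand, shares 53.7% of the exonic bases of POLA2 and had at most 24 counts in an MDA-MB-231 library and 68 in HCC1937, so the counts of POLA2 are uncertain in either line. POLD1, the catalytic subunit of polymerase delta, fell by 0.40 in each arm (SE 0.14, adjusted p = 0.0298 and 0.0358). POLE2, of polymerase epsilon, stood at 19.997, 13.6 and 18.4 CPM under vehicle, 10.8, 11.975 and 16.6 with TM (log2 -0.40, adjusted p = 0.169) and 11.9, 9.95 and 7.10 with AMD3100 (-0.85, SE 0.23, adjusted p = 0.0111). PRIM1 had log2 changes of -0.24 (adjusted p = 0.349) and -0.64 (SE 0.21, adjusted p = 0.0241). POLA1 was the least even member, at 6.88, 10.8 and 22.6 CPM within the 3 bortezomib plus TM libraries, a 3.29-fold range that covers its vehicle values of 22.6, 14.2 and 20.8.

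Deoxynucleotide genes rose in 3 of 4 cases in each arm, where 24.1% (TM) and 22.3% (AMD3100) of all genes were called higher. RRM2 went from 515, 479 and 531 CPM to 1377, 1398 and 1429.97 with TM and 1493, 1493 and 1508 with AMD3100, with each group far tighter than the distance between them. The rise was 2.76-fold with TM (log2 1.46, SE 0.08, adjusted p = 1.08e-07) and 2.95-fold with AMD3100 (1.56, SE 0.08, adjusted p = 9.13e-08). RRM1 went from 123, 78.0 and 123 CPM to 151, 216 and 279 and to 231, 222 and 162 (log2 0.99, SE 0.23, adjusted p = 0.00342, and 0.92, SE 0.23, adjusted p = 0.00612), with far more spread. TK1 rose from 502, 567 and 469 CPM to 1252, 1261 and 913 with TM and 969, 931 and 1054 with AMD3100 (log2 1.16, SE 0.13, and 0.94, SE 0.13). TYMS differed little, at 98.1 to 98.7 CPM under vehicle and 107 to 111 with TM (log2 0.15, SE 0.09, adjusted p = 0.185), while its opposite-strand neighbour ENOSF1 fell by 1.52.

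Of the remaining roles, RPA2, which coats single-stranded DNA, rose from 102, 108 and 96.1 CPM to 237, 234 and 186 with TM (log2 1.10, SE 0.11, adjusted p = 7.12e-06) and by 0.94 with AMD3100. LIG1, the ligase that joins Okazaki fragments, fell from 107, 126 and 102 CPM to 62.2, 58.9 and 55.4 (log2 -0.92, SE 0.11, adjusted p = 3.56e-05) and by 0.89. CHAF1B, a histone chaperone subunit, rose by log2 0.58 and 0.46, whereas UHRF1 fell by 0.73 and 0.51. CHAF1A and FEN1 passed in neither arm.

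Among cyclins and E2F factors the movement was in CCNE2. It stood at 2.34, 2.17 and 2.87 CPM under vehicle, 18.3, 15.3 and 24.8 with TM and 14.4, 10.4 and 7.85 with AMD3100, from 117 to 150 counts per vehicle library and 296 to 1113 per treated library. The rise was 7.91-fold with TM (log2 2.98, SE 0.26, adjusted p = 2.97e-06) and 4.43-fold with AMD3100 (2.15, SE 0.26, adjusted p = 3.95e-05). Exons of CCNE2 share 47.5% of their bases with INTS8 on the opposite strand, and INTS8 itself did not pass in either arm (log2 -0.16, SE 0.33, and -0.02, SE 0.33). CCNE1, the cyclin E1 gene, stayed at 18.7, 20.7 and 17.9 CPM under vehicle and 20.4, 19.9 and 17.2 with TM (log2 0.01, SE 0.14, adjusted p = 0.979). E2F1 had log2 changes of 0.15 and 0.06 (SE 0.13 in each, adjusted p = 0.376 and 0.747), and E2F2 of -0.38 (adjusted p = 0.0538) and -0.40 (adjusted p = 0.0483). Treated E2F2 libraries all lay below vehicle with TM and overlapped it with AMD3100. Members with an E2F motif in the promoter were called higher in 5 and lower in 4 of 18 cases with TM, and those without it higher in 9 and lower in 3 of 18. Of all genes, 24.1% were called higher and 27.6% lower. Members without a promoter entry, CCNE2 and RPA2 among them, are in neither set, and the difference between the sets was not tested.

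The treated arms of MDA-MB-231 were compared with each other to see whether the partner of bortezomib made a difference. 0 members passed, as did 0% of all genes by edgeR (3 members and 1464 genes at unadjusted p under 0.05), and DESeq2 and a fit without the low-count filter each called 1 member, CCNE2. CCNE2 was lower with AMD3100 than with TM by log2 0.84 (SE 0.24, edgeR adjusted p = 0.425, 95% interval -1.32 to -0.36), and the 3 libraries of each arm did not overlap. For RRM2 the difference was 0.10 (95% interval -0.06 to 0.25), for CDC6 -0.06 (-0.26 to 0.14), for MCM7 -0.17 (-0.38 to 0.04) and for RRM1 -0.07 (-0.52 to 0.37). RFC4 (0.37, SE 0.13) and UHRF1 (0.22, SE 0.10) were the other members under an unadjusted p of 0.05. These intervals leave room for differences well below the changes against vehicle.

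A direct test asked whether the TM-arm response differed between lines, over all 18 human libraries. 23 members were called, 21 with a higher log2 change in MDA-MB-231 and 2 (GINS1 and RFC4) with a lower one, beside 21.6% of all genes (11.2% and 10.4%). The median difference was 0.66 over the members and -0.091 over all genes. RRM2, whose opposite movement was known beforehand, differed by 2.57 (SE 0.14, edgeR adjusted p = 1.23e-09) and was the only member called in opposite directions in the 2 lines with all libraries in the fit. Without AMD3100 replicate 1 of HCC1937, 6 members were: MCM7, CDC45, RRM1, RPA2 and CHAF1B as well as RRM2. In that HCC1937 fit 19.4% of all genes were called higher and 21.4% lower, and in MDA-MB-231 24.1% and 27.6%. How many of all genes were called in opposite directions was not counted, so the 6 cannot be read as a trait of the members. CCNE2 differed by 2.92 (SE 0.34), ORC6 by 2.20 (SE 0.28), MCM7 by 2.01 (SE 0.22), CDC45 by 1.60 (SE 0.24) and CDC6 by 1.38 (SE 0.14). The members called lower in HCC1937 but in neither direction in MDA-MB-231 bortezomib plus TM included GINS2 (0.71), RFC2 (0.77), TYMS (0.76) and PRIM1 (0.98), which passed this test, and MCM5 (0.42, adjusted p = 0.207), which did not. By role, all 4 deoxynucleotide genes and 6 of 10 pre-replicative complex genes were called higher, and 1 of 6 polymerase and primase genes. Without AMD3100 replicate 1, 28 members were called, 23 higher and 5 lower, beside 32.6% of all genes (16.4% higher, 16.2% lower), and with only the compared groups 28 beside 35.3% (18% and 17.3%). MDA-MB-231 received bortezomib with TM and HCC1937 received TM alone, so line and bortezomib cannot be told apart.

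Other genes of the cell cycle were counted from lists of the pathway. In HCC1937 under TM, where 2.96% of all genes were called higher and 4.11% lower, 0 of 35 other replication and nucleotide genes rose and 6 fell (ASF1B, TIMELESS, TOP2A, WDHD1, POLD2 and DUT, log2 -0.83 to -0.52), 1 of 29 G1/S control genes rose and 1 fell, and 0 of 24 tested G2 and mitotic genes rose and 5 fell. The riser was CDKN1A, the p21 inhibitor of cyclin kinases, from 47.8 ± 1.90 to 457 ± 20.8 CPM, and the faller MYC, from 463 ± 7.22 to 276 ± 5.61 CPM (n = 3 in each group). Of 18 p53 target genes, CDKN1A among them, 8 rose and 0 fell. Without AMD3100 replicate 1, where 19.4% of all genes were called higher and 21.4% lower, 5 of the replication genes rose and 22 fell, 5 of G1/S control rose and 8 fell, 1 of the mitotic genes rose and 19 fell, and 16 of the p53 targets rose and 0 fell. In MDA-MB-231 under bortezomib plus TM, where 24.1% of all genes were called higher and 27.6% lower, 8 of the 35 other replication genes rose and 5 fell, and 13 of 26 tested G1/S control genes rose and 8 fell. CDC25A, the phosphatase that activates cyclin E and A kinases, rose from 119 ± 7.87 to 564 ± 22.7 CPM, CDKN1A from 51.5 ± 6.46 to 324 ± 38.8, and MYC by log2 0.93, while CCND1, cyclin D1, fell from 467 ± 24.8 to 105 ± 5.99 CPM. Of 25 G2 and mitotic genes, 1 rose (TTK, log2 1.71) and 11 fell, such as AURKA (-1.37) and PLK1 (-1.32), which drive mitosis. Of the p53 targets 8 rose and 5 fell. With AMD3100 as the partner, where 22.3% of all genes were called higher and 24.2% lower, the counts were 9 and 7 of the replication genes, 11 and 7 of G1/S control, 1 and 10 of the mitotic genes and 7 and 5 of the p53 targets. Thus CDKN1A rose in both lines, and MYC was called in opposite directions.

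The 4T1 tumours were compared to see how the same genes stood in vivo. 0 of 41 members were called in any of the 3 comparisons, where edgeR called 0% of all genes. At an unadjusted p under 0.05 there were 0, 1 and 2 members and 688, 1144 and 454 genes (bortezomib plus TM against vehicle, bortezomib plus AMD3100 against vehicle, and the arms against each other), and DESeq2 called 3, 21 and 4 genes and no member. The median log2 change of the members was -0.075 with TM and 0.011 with AMD3100, and single members ranged from -0.34 to 0.28 and from -0.27 to 0.59. A tumour library mixes carcinoma, immune and stromal cells, and a lower level can mean fewer cells of a type or less RNA per cell, which cannot be told apart.

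Rrm2 stood at 111, 127 and 117 CPM in vehicle tumours, 99.5, 129 and 133 with bortezomib plus TM and 95.1, 115 and 101 with bortezomib plus AMD3100. All groups overlapped, and the log2 changes were 0.03 (SE 0.13, 95% interval -0.23 to 0.29) and -0.19 (SE 0.13, -0.45 to 0.07), so a rise of the size seen in MDA-MB-231 lies outside both intervals. Cdc6 (log2 -0.19, SE 0.24, and -0.09, SE 0.24), Mcm7 (-0.16, SE 0.14, and -0.03, SE 0.14) and Orc6 (0.13, SE 0.17, and -0.03, SE 0.17) were likewise not called, nor were Pcna (-0.03 and -0.18), Mcm2 (-0.13 and 0.01), Rrm1 (-0.09 and -0.02) and E2f1 (-0.18 and -0.21). Ccne2 was low and uneven, at 4.63, 5.62 and 2.84 CPM under vehicle, 2.54, 2.96 and 5.30 with TM and 3.03, 5.49 and 2.70 with AMD3100, and its intervals were wide (-1.07 to 0.52 and -1.02 to 0.57). E2f2 had the smallest unadjusted p with AMD3100: its 44.6, 31.2 and 37.4 CPM lay above the vehicle tumours at 24.7, 23.8 and 26.9 (log2 0.59, SE 0.17, adjusted p = 0.634, edgeR). Ccne1 was also above vehicle in all 3 of those tumours (22.4, 18.7 and 16.5 CPM against 12.9, 15.05 and 15.9; log2 0.39, SE 0.19, adjusted p = 0.634). Over all members in this comparison, 3 lay wholly above vehicle, 3 wholly below and 35 overlapped it. How many of all genes separate in this way was not counted, so no G1/S rise can be read from these members.

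Tumours of 1 group were uneven: the ratio of the highest to the lowest had a median over the members of 1.16 under vehicle, 1.34 with TM and 1.35 with AMD3100. Bortezomib plus TM replicate 1 was the lowest of the 9 libraries for 29 members, and bortezomib plus AMD3100 replicate 2 the highest for 24. The same was not counted over all genes, so it cannot be read as particular to the members. The mean log2 CPM of the members was 5.77 to 5.84 under vehicle, 5.54 to 5.88 with TM and 5.66 to 6.05 with AMD3100. The summed level of 5 B cell markers ran from 1.58 to 97.5 CPM, from 1.64 to 395 and from 4.23 to 582 in the same groups, that of 6 T cell markers from 18.8 to 99.3, from 49.2 to 286 and from 52.6 to 453, and that of 7 epithelial markers from 1474 to 2400.4, from 1075 to 1925 and from 976 to 1255. The 6 macrophage markers summed to 1603 to 1698 CPM under vehicle, 836 to 1443 with TM and 1032 to 1330 with AMD3100, below vehicle in every treated tumour. The 5 neutrophil markers summed to 86.6 to 119 CPM, 53.4 to 88.7 and 38.4 to 82.4 in the same order. The part of the cell mixture in these member levels was not tested.

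**Figure D5:**
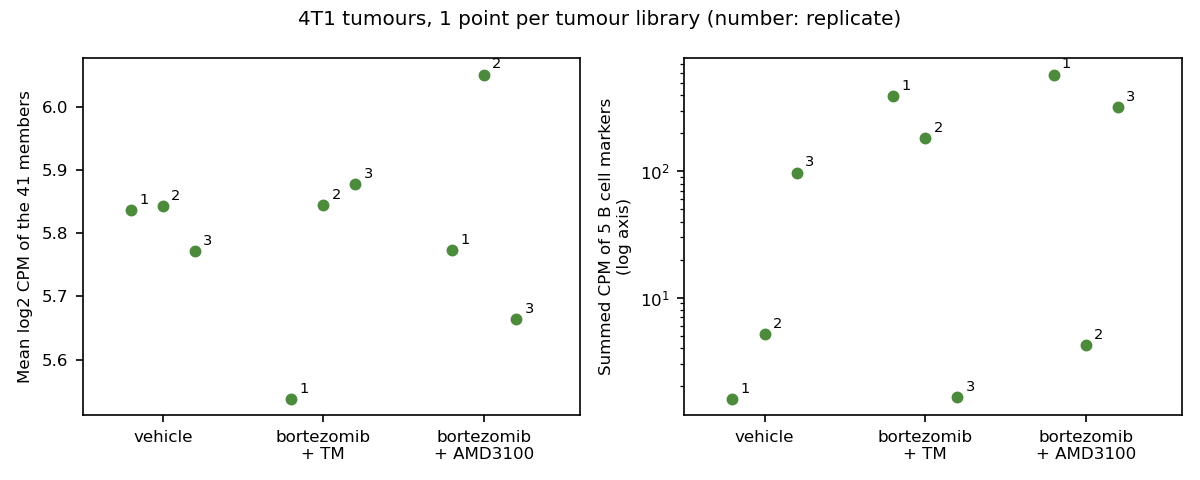
Left, mean log2 CPM of the 41 members in each 4T1 tumour; right, summed CPM of 5 B cell markers in the same tumours on a log axis, with replicate numbers beside the points. Members are lowest in bortezomib plus TM replicate 1 (5.54) and highest in bortezomib plus AMD3100 replicate 2 (6.05), and B cell markers run from 1.58 to 582 CPM.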

How the data were processed

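Per the submitters' processing notes, the tools were featureCounts 2.0.1 (gene counting) and MultiQC 1.11, with the builds GRCh38 and GRCm38; libraries were made from poly(A) RNA, per the labels' protocols; the aligner, annotation version and strand setting are not given in the sources used here. The authors deposited raw counts per gene and library, 1 table per dataset, with gene lengths in the human tables per the file headers. Between 56.9% and 66.1% of counts from 1 to 20 were even; whether mates of a pair were counted separately was not tested.

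Each table was fitted over its 9 libraries with edgeR 4.0.16 in R 4.3.3 (filterByExpr, TMM scaling, 1 coefficient per group, quasi-likelihood F tests), with p-values adjusted by Benjamini-Hochberg over all 19461, 16498 or 15846 tested genes and a call at 0.05. A joint fit of 18 libraries tested 21590 genes. Standard errors were recovered from each log2 change and its F statistic. RPKM uses the deposited lengths; mouse values are CPM only. Exon overlaps and positions come from GENCODE 29.

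The members, roles and lists were chosen with earlier results of these data known. Named genes are RRM2, RRM1, MCM2, PCNA, CCNE1, CCNE2, E2F1, CDC6 and the 2 called members with the smallest p in each role; other members named were chosen after their values were seen. Alternatives were median-of-ratios scaling, no filter, DESeq2 1.42.0, limma-voom (limma 3.58.1), a replicate block, compared groups alone, a 2-fold call and each library left out; leaving out AMD3100 replicate 1 together with another library, and for the other lists and the members called in opposite directions, was added after seeing the data. On counts simulated from each table, 2-fold changes were recovered in 35% (HCC1937 TM), 81% (MDA-MB-231 bortezomib plus TM) and 43% (4T1 bortezomib plus TM) of 100 changed genes, and 1.5-fold changes in 0%, 21% and 5%. The simulation changed 100 genes at each fold. In the data, 7.07% (HCC1937 TM) and 51.7% (MDA-MB-231 bortezomib plus TM) of all genes were called. Adjustment over all genes is stricter where few change, so these recoveries do not describe the fits to the data of these lines. The simulated spread came from all 9 libraries of a table, for HCC1937 with AMD3100 replicate 1. In that line the median ratio of highest to lowest library over the members was 1.34 under AMD3100, 1.08 under vehicle and 1.08 under TM. The HCC1937 recovery thus does not describe the fits without that library.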

Additional observations from a re-analysis of the deposited data

Results flagged for a closer look

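For 15 of the named members the log2 change against vehicle differed between the lines by edgeR's test of the difference itself (bortezomib plus TM in MDA-MB-231 minus TM in HCC1937, adjusted p under 0.05). The differences were 2.92 for CCNE2, 2.57 for RRM2, 2.01 for MCM7, 1.60 for CDC45, 1.44 for RPA2, 1.38 for CDC6, 1.30 for GINS3, 1.28 for TK1, 1.25 for RRM1, 0.99 for RFC5, 0.98 for PRIM1, 0.83 for CHAF1B, 0.76 for PCNA, 0.66 for MCM2 and -1.003 for RFC4. MCM2 passed in 9 and PRIM1 in 10 of 19 alternative fits, and the other 13 in all 19. Line and bortezomib cannot be told apart in these values.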

How the results depend on the processing

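The number of members called held within 1.5 times of the value reported in MDA-MB-231 against vehicle and in the difference between lines, except when a 2-fold change was also asked for, which left 12 (bortezomib plus TM), 10 (bortezomib plus AMD3100) and 14 (difference). For TM against vehicle in HCC1937, where 6 were called, the count was 1 with a replicate block, 26 with the compared groups alone, 26 with the AMD3100 library that stands apart left out, 2 at 2-fold and 1 to 26 with libraries left out. For AMD3100 against TM, where 7 were called, it was 2 with the block, 1 alone, 2 at 2-fold and 2 to 25 with libraries left out, and for AMD3100 against vehicle 0 to 5. Without the filter, HCC1937 TM against vehicle had 4 calls, 2 of them among the 6 reported, and AMD3100 against TM had 5, with 4 of the 7. Between the MDA-MB-231 arms, 1 member was called without the filter and 1 by DESeq2. The share of all genes called moved too. For HCC1937 TM against vehicle it was 7.07% as reported, 44.8% with the compared groups alone and 40.8% without AMD3100 replicate 1. For AMD3100 against TM it was 8.22%, 1.36% and 36.5%. All-gene shares of the other settings are not given here, so these counts show dependence on processing and no trait of the members. Deviations of same-numbered libraries between groups correlated from -0.037 to 0.037 in HCC1937, -0.324 to 0.287 in MDA-MB-231 and -0.468 to 0.597 in 4T1. Those of differently numbered libraries ran from -0.048 to 0.052, from -0.351 to 0.308 and from -0.631 to 0.663. These correlations show no pairing by replicate number, but cannot exclude one. With the block, 22, 22 and 20 members passed in the MDA-MB-231 comparisons against vehicle and in the difference.

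The directions that turned belonged to small changes that were not called, and the cause was not tested. Without the filter the log2 changes were 0.00097 for MCM2 and 0.015 for PCNA (HCC1937 TM), -0.011 for RRM2 (HCC1937 AMD3100), -0.050 for E2F1 (HCC1937 AMD3100 against TM) and -0.0054 for Mcm2 (4T1 bortezomib plus AMD3100). In HCC1937 AMD3100 against TM, E2F1 was at -0.0014 with median-of-ratios scaling and -0.0068 with DESeq2, and CCNE2 at 0.0054 with limma-voom, 0.0090 with the block and 0.0091 with these groups alone. Ccne2 between the 4T1 arms was at -0.0083 with the block. With libraries left out, log2 changes ran as follows. In HCC1937 TM, PCNA ran from -0.084 to 0.00031 and CCNE2 from -0.14 to 0.21. In HCC1937 AMD3100, MCM2 ran from -0.068 to 0.15, RRM2 from -0.085 to 0.052, CCNE1 from -0.19 to 0.055 and E2F1 from -0.15 to 0.084. In HCC1937 AMD3100 against TM, MCM2 ran from -0.0093 to 0.21, CCNE2 from -0.11 to 0.22 and E2F1 from -0.087 to 0.14. In MDA-MB-231, CCNE1 ran from -0.041 to 0.098 with bortezomib plus TM and E2F1 from -0.026 to 0.18 with bortezomib plus AMD3100. Between those arms CDC6 ran from -0.14 to 0.0022, RRM1 from -0.27 to 0.14 and E2F1 from -0.21 to 0.0012. In 4T1 bortezomib plus TM, Pcna ran from -0.15 to 0.10 and Rrm2 from -0.049 to 0.15. In 4T1 bortezomib plus AMD3100, Cdc6 ran from -0.40 to 0.11, Mcm2 from -0.11 to 0.085, Rrm1 from -0.21 to 0.086 and Ccne2 from -0.61 to 0.0010. Between the 4T1 arms Cdc6 ran from -0.22 to 0.30, Rrm1 from -0.12 to 0.18, Ccne1 from -0.0045 to 0.295, Ccne2 from -0.34 to 0.44 and E2f1 from -0.18 to 0.14.

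In HCC1937 TM, RRM2 passed in all 19 alternative fits. In MDA-MB-231, POLD1 passed in 5 of 12 alternatives in each arm, and with AMD3100 E2F2 passed in 3, MCM2 and PRIM1 in 8 and POLE2 in 11.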
